A study of Mus musculus with 9 samples.

Results

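Myocilin (Myoc) and 7 other genes known from human or mouse glaucoma (Optn, Cyp1b1, Ltbp2, Foxc1, Lmx1b, Wdr36 and Angptl7) were followed across whole eyes of 3 inbred mouse strains. The genes were chosen by name, with Myoc already known to differ between strains in these data, and all 8 were found among the 13089 genes of the deposited tables. Whole eyes of wild-type female A/J, BALB/c and C57BL/6J mice of 4 weeks were profiled by sequencing of poly(A) RNA. Each strain had 3 libraries, numbered 1 to 3, and each library held pooled RNA of 5 mice. No treatment or engineered allele is named for any strain, and the strains differ across the whole genome rather than at 1 locus. C57BL/6J mice are pigmented, whereas both other strains are albino. Whether a strain's libraries came from separate pools of mice is not given in the labels, so the spread between them may be technical.

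Glaucoma is a loss of retinal ganglion cells and their axons in the optic nerve, and raised pressure in the eye is its best known risk factor. The pressure is set by aqueous humour, which the ciliary epithelium secretes and which leaves the eye mainly through the trabecular meshwork at the angle between iris and cornea. The 8 genes fall into different parts of this system. Myoc encodes a secreted glycoprotein with an olfactomedin domain, abundant in the trabecular meshwork, and mutant myocilin is retained in the endoplasmic reticulum. Angptl7 encodes a secreted angiopoietin-like protein of the cornea and outflow tissue, and Ltbp2 a latent TGF-beta binding protein of microfibrils. Cyp1b1 encodes a cytochrome P450 enzyme whose loss causes congenital glaucoma. Optn encodes optineurin, an autophagy receptor, and Wdr36 a WD-repeat protein of the machinery that assembles the small ribosomal subunit. Foxc1 and Lmx1b encode transcription factors that shape the anterior segment from periocular mesenchyme.

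Levels are RPKM, reads scaled by gene length and mapped reads, so they can be compared between genes. Log2 changes come from a limma fit over all 9 libraries on log2 of RPKM divided by a size factor for each library, with 0.5 added. They are given with their standard error (SE) and understate the change of low genes. A gene was called when its adjusted p was under 0.05. Because the members were chosen with results of these contrasts in view, their values are a description and no p-value is given for them.

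Some libraries stood apart from the others of their strain. On the first principal component of all tested genes, which held 49.1% of the variance, the scores were -42.4 for A/J 1, -51.4 for A/J 2 and 56.4 for C57BL/6J 3. The other 6 libraries lay between -7.8 and 14.8. The deviation of a gene from its mean correlated with the GC content of its transcript, with a Spearman coefficient across genes of -0.65 and -0.72 in A/J 1 and A/J 2 and -0.3 in C57BL/6J 1, and of 0.09 to 0.56 in the other 6, with the highest in BALB/c 2. The libraries of BALB/c were the closest to each other: the log2 SD of the median gene was 0.1 there, against 0.26 for A/J and 0.25 for C57BL/6J. The tissue label held in all libraries: summed lens markers reached at least 96940 RPKM and summed photoreceptor markers at least 12856 RPKM in each.

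**Figure D1:**
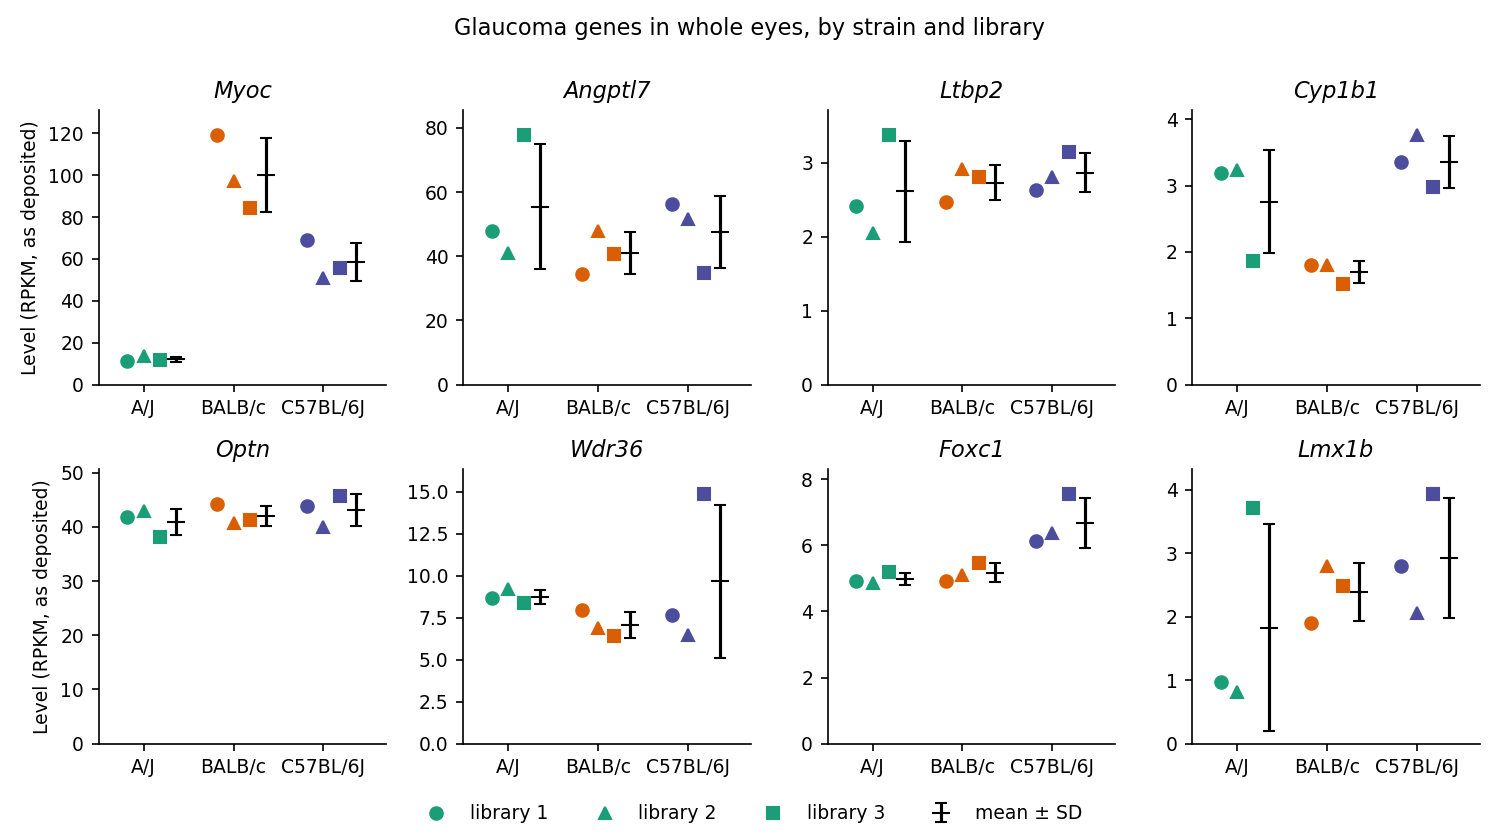
Level of each of the 8 glaucoma genes (RPKM, linear axis from 0) in the 3 libraries of A/J, BALB/c and C57BL/6J. Symbols are libraries and bars are mean ± SD. Myoc separates the strains, at 11.07 to 13.56 RPKM in A/J against 51.11 or more in every other library. On these deposited values Angptl7, Ltbp2, Optn and Lmx1b overlap between all pairs of strains.

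Myoc was low in A/J eyes and high in BALB/c eyes. Its level was 11.07, 13.56 and 11.71 RPKM in A/J libraries 1, 2 and 3. It was 119.11, 97.28 and 84.34 RPKM in BALB/c and 68.89, 51.11 and 55.85 RPKM in C57BL/6J. The strains did not overlap in any pair: every A/J library lay below every C57BL/6J library, and every C57BL/6J library below every BALB/c library. The means were 12.1 ± 1.29, 58.6 ± 9.21 and 100.2 ± 17.6 RPKM (SD, n = 3) in A/J, C57BL/6J and BALB/c, so the C57BL/6J mean was 4.84 times and the BALB/c mean 8.28 times that of A/J. Among the 13089 listed genes Myoc ranked between 4652 and 5504 in A/J libraries, close to the middle. It ranked between 349 and 560 in BALB/c and between 789 and 1215 in C57BL/6J. In whole eyes, fewer cells of a type and less RNA per cell cannot be told apart.

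The log2 change of Myoc was -2.11 (SE 0.18) for A/J minus C57BL/6J, 0.94 for BALB/c minus C57BL/6J and -3.06 for A/J minus BALB/c. Myoc was the 1 of 8 members called in each comparison. The share of all 12920 tested genes called was 2.69% for A/J minus C57BL/6J, 3.09% in BALB/c minus C57BL/6J and 2.48% in A/J minus BALB/c, and nothing is read from the members' counts, since the choice of Myoc used these contrasts. The BALB/c minus C57BL/6J call was lost with values as deposited (log2 change 0.77) and without BALB/c 1, BALB/c 2, C57BL/6J 2 or C57BL/6J 3, where the log2 change lay between 0.82 and 0.95. With a pair of libraries left out the A/J minus C57BL/6J value kept its direction and size: it was -2.2 without A/J 1 and A/J 2 and -2.16 without A/J 3 and C57BL/6J 3. After a correction for GC content it was -1.93. No alternative left out A/J 1, A/J 2 and C57BL/6J 3, which stood apart, together.

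**Figure D2:**
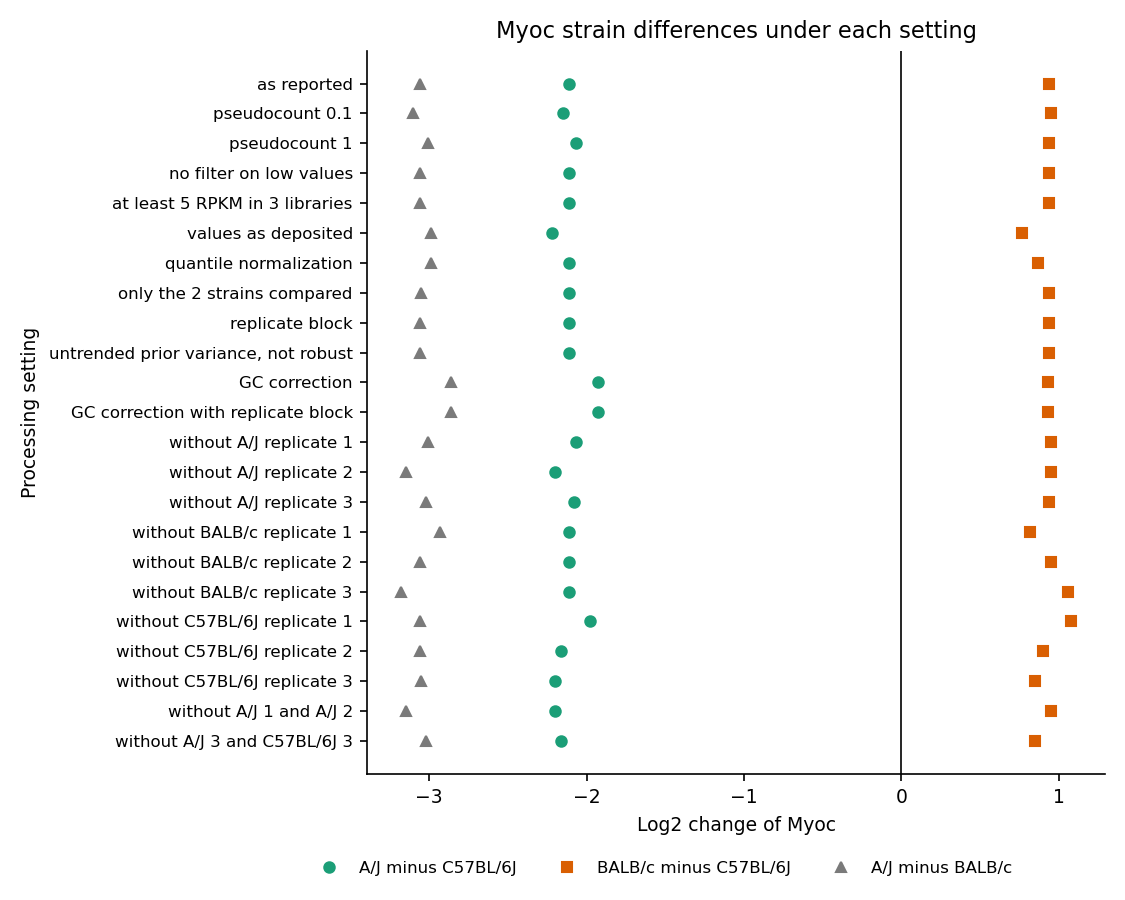
Log2 change of Myoc (x axis, log2 of scaled RPKM + 0.5) in the 3 strain comparisons under each setting of the analysis, including each library left out in turn; each point is 1 estimate. Over 22 alternatives the change stayed between -2.22 and -1.93 for A/J minus C57BL/6J, 0.77 and 1.08 for BALB/c minus C57BL/6J, and -3.18 and -2.86 for A/J minus BALB/c.

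The promoter of Myoc is shown because Myoc was the member with the widest strain range, and that of Angptl7 because it is the other abundant secreted outflow gene, with overlapping strains. The sequences are the 250 bases before the annotated start in RefSeq (GRCm38.p6), written 5′ to 3′ on the gene's strand, with capitals for matches to TATAAA and CANNTG (the E-box). Myoc lies at chr1:162638900-162639149 on the plus strand and Angptl7 at chr4:148500463-148500712 on the minus strand.
Myoc: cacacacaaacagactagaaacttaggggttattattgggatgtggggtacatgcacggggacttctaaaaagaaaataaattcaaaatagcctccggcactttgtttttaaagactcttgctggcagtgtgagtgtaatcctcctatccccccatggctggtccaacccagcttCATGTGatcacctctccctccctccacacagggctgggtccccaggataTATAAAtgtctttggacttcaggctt
Angptl7: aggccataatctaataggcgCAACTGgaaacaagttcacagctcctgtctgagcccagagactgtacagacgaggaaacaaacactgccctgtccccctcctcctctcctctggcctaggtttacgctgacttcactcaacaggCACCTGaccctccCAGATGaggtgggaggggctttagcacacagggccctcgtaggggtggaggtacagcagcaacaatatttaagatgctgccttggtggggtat

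In the Myoc promoter a TATAAA match began 26 bases before the start and a CATGTG match 75 bases before it. The Angptl7 promoter held 3 CANNTG matches and none to TATAAA. Of 32851 RefSeq promoters of 300 bases (250 before and 50 after the start), 13.6% held TATAAA and 72.3% held CANNTG on either strand. Both outflow genes had few CpG dinucleotides in that window, 2 in Myoc and 4 in Angptl7, against a median of 7 over all promoters. The window held 13 CpG in Optn, 16 in Cyp1b1, 20 in Ltbp2, 24 in Lmx1b and 32 in Foxc1, and the table held no window for Wdr36. The sequence is that of the reference genome, and the deposited tables give no strain sequence.

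Angptl7 was the most abundant member in A/J and stayed close to Optn in the other strains. Its level was 47.80, 41.10 and 77.73 RPKM in A/J, 34.50, 47.78 and 40.86 RPKM in BALB/c and 56.23, 51.63 and 34.70 RPKM in C57BL/6J. The 3 strains overlapped, and A/J 3 was the highest library. The means were 55.5 ± 19.5, 41.0 ± 6.64 and 47.5 ± 11.3 RPKM (SD, n = 3). The log2 change was 0.31 (SE 0.29) for A/J minus C57BL/6J, -0.01 for BALB/c minus C57BL/6J and 0.32 for A/J minus BALB/c. The A/J minus C57BL/6J value depended on which libraries were used: it was 0.8 without A/J 1 and A/J 2 and -0.21 without A/J 3 and C57BL/6J 3.

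The ratio of Myoc to Angptl7 within a library compares 2 secreted outflow transcripts without any scaling between libraries. The A/J ratios were 0.232, 0.33 and 0.151. Those of BALB/c were 3.45, 2.04 and 2.06, and those of C57BL/6J 1.23, 0.99 and 1.61. Myoc was thus the lower transcript of the pair in every A/J library and the higher in every BALB/c library. The ratio of Myoc to Mgp, which encodes a matrix Gla protein abundant in trabecular meshwork, was lowest in A/J (0.061 to 0.0657), intermediate in C57BL/6J (0.184 to 0.253) and highest in BALB/c (0.421 to 0.535). Mgp itself was at 193 ± 12.5, 213 ± 11.4 and 259 ± 33.7 RPKM (SD, n = 3) for A/J, BALB/c and C57BL/6J. A ratio shows unequal change of the 2 transcripts and does not show that either was unchanged.

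**Figure D3:**
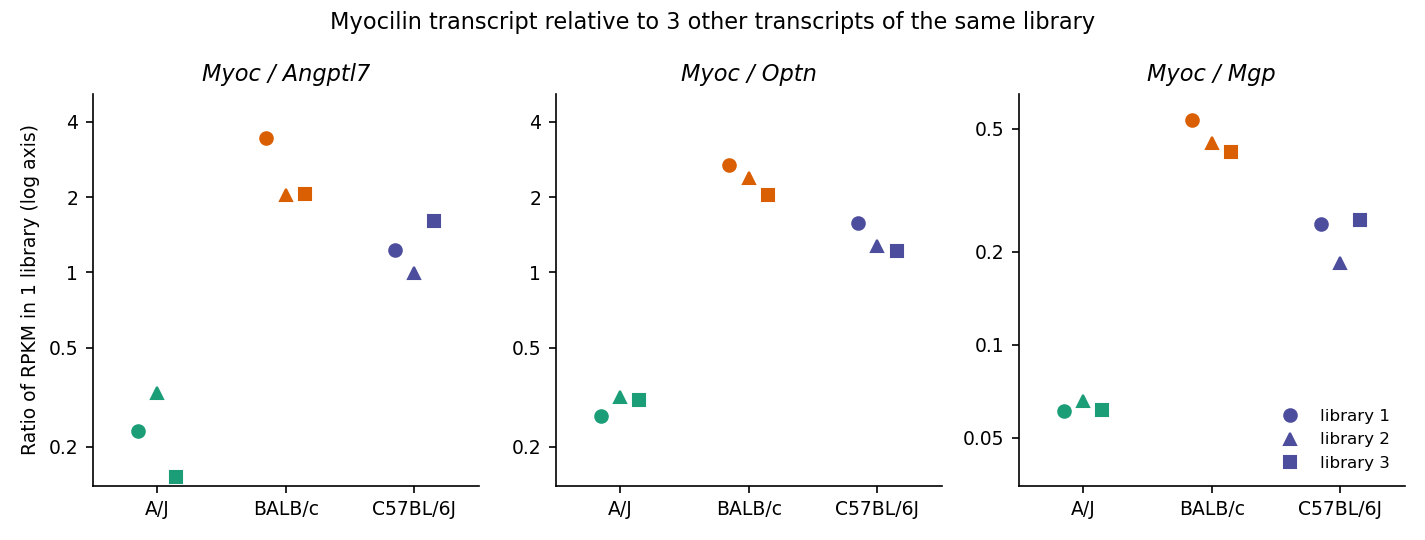
Ratio of the Myoc level to those of Angptl7, Optn and Mgp in the same library (log axes), for the 3 libraries of each strain; symbols are libraries. In each panel the 3 A/J libraries lie below all C57BL/6J libraries, which lie below all BALB/c libraries.

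Ltbp2, whose product binds fibrillin microfibrils and not the TGF-beta precursor, was low in all 3 strains. Its level was 2.42, 2.05 and 3.37 RPKM in A/J, 2.47, 2.92 and 2.80 RPKM in BALB/c and 2.63, 2.81 and 3.15 RPKM in C57BL/6J. The strains overlapped, with the lowest and the highest value both in A/J. The means were 2.61 ± 0.681, 2.73 ± 0.233 and 2.86 ± 0.264 RPKM (SD, n = 3), and the log2 changes were -0.04, 0.09 and -0.13 (SE 0.16) for A/J and then BALB/c minus C57BL/6J, and for A/J minus BALB/c. The second value was -0.06 with values as deposited. The GC content of the transcript was 58.5%, against a median of 50.1% over genes, and the A/J minus C57BL/6J change was 0.29 after GC correction.

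Cyp1b1, whose enzyme oxidises steroids and retinoids, was lowest in BALB/c. Its level was 3.19, 3.23 and 1.86 RPKM in A/J, 1.80, 1.80 and 1.51 RPKM in BALB/c and 3.35, 3.76 and 2.98 RPKM in C57BL/6J. BALB/c lay below C57BL/6J without overlap, while A/J 3 lay close to BALB/c and the other A/J libraries close to C57BL/6J. As deposited every BALB/c library also lay below every A/J library. After division by the size factors A/J (1.85 to 3.28) and BALB/c (1.6 to 1.93) overlapped. The means were 2.76 ± 0.78, 1.7 ± 0.167 and 3.36 ± 0.39 RPKM (SD, n = 3). The log2 change was -0.66 (SE 0.21) for BALB/c minus C57BL/6J, -0.18 for A/J minus C57BL/6J and 0.49 for A/J minus BALB/c. The last 2 values were -0.65 and 0.01 without A/J 1 and A/J 2, and 0.06 and 0.72 without A/J 3.

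Optn was the most even member. Its level was 41.80, 42.86 and 38.17 RPKM in A/J, 44.23, 40.80 and 41.34 RPKM in BALB/c and 43.81, 39.92 and 45.63 RPKM in C57BL/6J. As deposited the strains overlapped. After division by the size factors BALB/c libraries (43.7 to 46.7) lay just above those of A/J (37.9 to 43.6) and C57BL/6J (39.4 to 42.0). The means were 40.9 ± 2.46, 42.1 ± 1.84 and 43.1 ± 2.92 RPKM (SD, n = 3). The log2 change of BALB/c minus C57BL/6J was 0.15 (SE 0.11) and turned to -0.03 with values as deposited. That of A/J minus C57BL/6J was 0.04, and -0.07 as deposited.

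Wdr36 was similar in 8 libraries and high in 1. Its level was 8.67, 9.21 and 8.38 RPKM in A/J, 7.94, 6.90 and 6.39 RPKM in BALB/c and 7.68, 6.46 and 14.85 RPKM in C57BL/6J. The high value came from C57BL/6J 3, the library apart from the rest. As deposited every A/J library lay above every BALB/c library, whereas after division by the size factors A/J (8.32 to 9.36) and BALB/c (6.76 to 8.39) overlapped, and C57BL/6J overlapped both on either scale. The means were 8.75 ± 0.421, 7.08 ± 0.79 and 9.66 ± 4.53 RPKM (SD, n = 3), and the log2 changes were 0.06, -0.17 and 0.23 (SE 0.23) in the order of comparisons used above. Without C57BL/6J 3 the first of these was 0.34 and the second 0.11. After GC correction the first was -0.12 and the third 0.0.

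Foxc1, a forkhead factor mutated in Axenfeld-Rieger syndrome, was highest in C57BL/6J. Its level was 4.92, 4.85 and 5.18 RPKM in A/J, 4.92, 5.11 and 5.47 RPKM in BALB/c and 6.13, 6.37 and 7.54 RPKM in C57BL/6J. All C57BL/6J libraries lay above the other 6, and after size factors A/J (4.93 to 5.14) also lay below BALB/c (5.2 to 5.78). The means were 4.98 ± 0.174, 5.17 ± 0.279 and 6.68 ± 0.754 RPKM (SD, n = 3). The log2 change was -0.28 (SE 0.11) for A/J minus C57BL/6J and -0.17 for BALB/c minus C57BL/6J. After GC correction these were -0.03 and -0.19, and the A/J minus BALB/c change of -0.11 became 0.16.

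Lmx1b, a LIM homeobox factor mutated in nail-patella syndrome, had the widest spread within a strain. Its level was 0.97, 0.81 and 3.71 RPKM in A/J, 1.90, 2.80 and 2.48 RPKM in BALB/c and 2.80, 2.06 and 3.93 RPKM in C57BL/6J. A/J 1 and A/J 2 were the lowest of all libraries and A/J 3 was among the highest, so the strains overlapped. The means were 1.83 ± 1.63, 2.39 ± 0.456 and 2.93 ± 0.942 RPKM (SD, n = 3). The log2 change of A/J minus C57BL/6J was -0.64 (SE 0.4), with 0.39 without A/J 1 and A/J 2 and -1.17 without A/J 3. The transcript's GC content was 57.9%, and the change was -0.33 after GC correction.

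**Figure D4:**
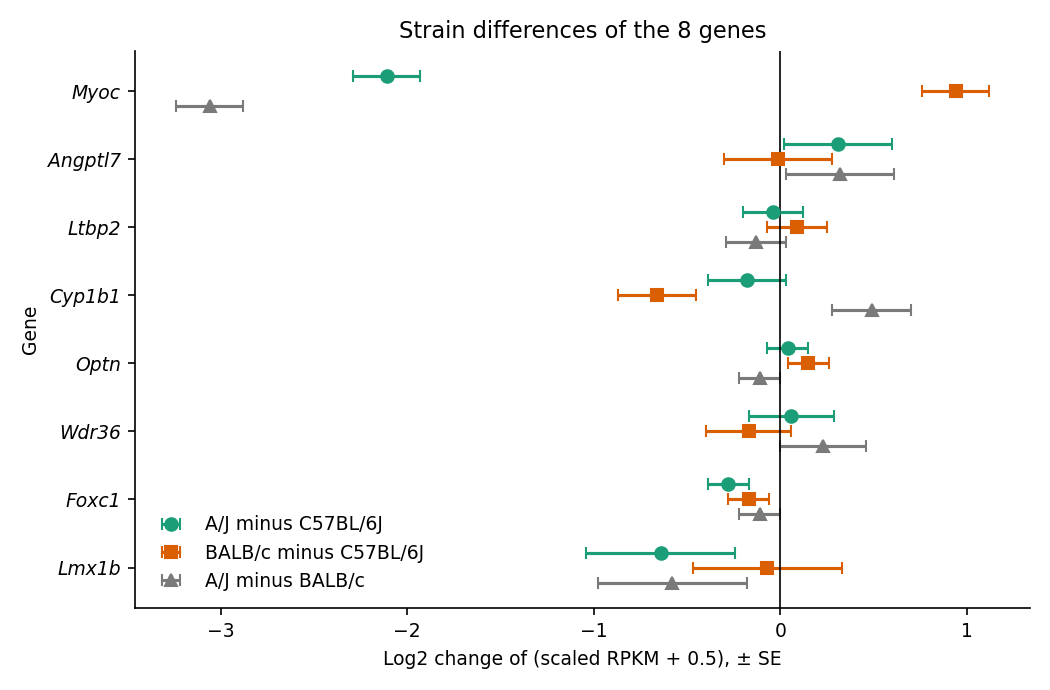
Log2 change (log2 of scaled RPKM + 0.5) of each of the 8 glaucoma genes in the 3 strain comparisons; points are limma estimates and bars ± SE. Myoc lies at -2.11, 0.94 and -3.06, and the other 7 lie between -0.66 and 0.49 in all 3.

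The other 7 members had smaller changes than Myoc in all 3 comparisons. Their median absolute log2 change was 0.18 in A/J minus C57BL/6J, 0.15 in BALB/c minus C57BL/6J and 0.23 in A/J minus BALB/c, against 0.27, 0.17 and 0.28 over all tested genes. In the same order, 2, 4 and 3 of the 8 members had libraries that did not overlap, where 16.4%, 25.1% and 29.2% of all tested genes did not overlap either. The calls depended on A/J 3: without it Lmx1b was also called in A/J minus C57BL/6J, Cyp1b1 in BALB/c minus C57BL/6J, and both in A/J minus BALB/c. Without it the share of all tested genes called was also higher, at 28.2%, 4.89% and 34.6% in the 3 comparisons. Without A/J 3 and C57BL/6J 3 together, where 39.4% of all tested genes were called in A/J minus C57BL/6J, Wdr36 was called there as well. Cyp1b1 was also called in BALB/c minus C57BL/6J after GC correction with the replicate number as a block.

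The order of the members differed between strains mainly through Myoc. In A/J it came after Angptl7 and Optn, and in both other strains it had the highest level of the 8. Angptl7 and Optn differed by less than the SD of Angptl7 in each strain. Wdr36 and Foxc1 followed in all strains, and Cyp1b1, Ltbp2 and Lmx1b held the last places, at means between 1.7 and 3.36 RPKM.

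Annotation on the opposite strand touched several members, and whether the counting used strand is not given in the sources used here. Exons of Myocos covered 4.5% of the Myoc exons (93 of 2074 bases), and an antisense transcript covered 9.3% of the exon bases of Ltbp2. Angptl7 lies within a gene on the other strand, Mtor, with no exon bases in common. Stretches of 31 bases that also occur, on either strand, in transcripts of other genes made up 9.2% of the Ltbp2 transcripts. For the other 7 members they made up at most 3.2%. Transcripts of other genes were counted wherever they lie, also at the same locus.

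Genes of the members' pathways were read from 10 lists with 216 tested genes. Of these, 3 rose and 3 fell in A/J against C57BL/6J (2.78%), 2 rose and 1 fell in BALB/c against C57BL/6J (1.39%), and 1 rose and 2 fell in A/J against BALB/c (1.39%). The first share was close to that of all tested genes given above, and the other 2 were below it. Without A/J 3 the counts were 69, 7 and 71 (31.9%, 3.24% and 32.9%), close to or below the shares of all tested genes without that library (28.2%, 4.89% and 34.6%). Without A/J 1 and A/J 2 they were 1, 2 and 0 of 215, against 0.983%, 3.08% and 0.538% of all tested genes. The median log2 change over these genes was -0.02, -0.02 and 0.04, against -0.01 over all tested genes in each comparison.

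In the olfactomedin family, to which myocilin belongs, 1 of 11 tested genes fell in A/J. Olfml3, a secreted olfactomedin-like protein, was at 25.3 ± 3.41 RPKM in A/J, 45.5 ± 2.34 RPKM in BALB/c and 58.4 ± 11.1 RPKM in C57BL/6J (SD, n = 3). The log2 change from C57BL/6J was -1.07 (SE 0.19, limma adjusted p = 0.021), and from BALB/c -0.91 (adjusted p = 0.049). It was lowest in A/J, as Myoc was, while its BALB/c libraries (42.92 to 47.47 RPKM) and C57BL/6J libraries (45.84 to 66.63 RPKM) overlapped. The A/J minus C57BL/6J call was lost without C57BL/6J 2 (-0.92) and in 7 other alternatives, and the call against BALB/c in 12.

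Endoplasmic reticulum chaperones, which handle misfolded secreted proteins, showed no called gene among 21 tested by limma. In the 3 comparisons 0, 1 and 0 of them had an unadjusted p under 0.05. Of all 12920 tested genes, 2265, 1778 and 2705 did. Calr, the most abundant, was at 207 ± 46.7, 205 ± 4.27 and 187 ± 40.7 RPKM (SD, n = 3) for A/J, BALB/c and C57BL/6J. The list's median log2 change lay between 0.01 and 0.16.

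Among 20 tested optineurin partners and autophagy receptors, 1 was called. Gabarapl2, an ATG8-family protein of autophagosomes, was at 38.2 ± 1.26 RPKM in BALB/c, 11.6 ± 5.88 RPKM in C57BL/6J and 7.77 ± 1.88 RPKM in A/J (SD, n = 3). It rose in BALB/c by 1.96 on the log2 scale over C57BL/6J (SE 0.27, adjusted p = 0.0046), and the A/J minus BALB/c change was -2.32 (adjusted p = 0.0025, and adjusted p = 0.12 without A/J 1 and A/J 2). Of its 31-base stretches, 15.3% also occur in transcripts of other genes, so its level is uncertain. Tbk1, the kinase that binds optineurin, had means of 16.1, 10.9 and 12.8 RPKM for A/J, BALB/c and C57BL/6J.

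None of 20 tested genes of aryl hydrocarbon and retinoid oxidation was called by limma. In the 3 comparisons 7, 4 and 6 of them had an unadjusted p under 0.05, where 2265, 1778 and 2705 of all 12920 tested genes did. The most abundant, Aldh3a1, a corneal aldehyde dehydrogenase, was at 1757 ± 278, 1920.4 ± 214 and 1918 ± 640.1 RPKM (SD, n = 3) for A/J, BALB/c and C57BL/6J. None of 21 tested genes of the LTBP and microfibril list was called either, with 4, 3 and 4 at an unadjusted p under 0.05, and its median log2 change was -0.32, -0.12 and -0.27. Ltbp4 had a mean of 20.5 RPKM in C57BL/6J, with 34.99 RPKM in C57BL/6J 3, and 7.73 RPKM in A/J. Mfap4, the most abundant of that list, was at 75.5 ± 5.12, 89.4 ± 3.69 and 66.5 ± 16.2 RPKM for A/J, BALB/c and C57BL/6J (SD, n = 3).

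Of 30 tested TGF-beta and BMP genes, 2 rose in A/J against C57BL/6J. Bmp4, a ligand made by the ciliary epithelium and outflow cells, averaged 17.6 ± 1.6 RPKM in A/J and 10.6 ± 1.99 RPKM in C57BL/6J, a log2 change of 0.82 (SE 0.16, limma adjusted p = 0.025, lost in 9 alternatives). Grem1, a secreted BMP antagonist that can raise eye pressure, was low at 1.61 ± 0.499 RPKM in A/J, 3.25 ± 0.542 RPKM in BALB/c and 0.553 ± 0.186 RPKM in C57BL/6J. On the log2 scale it rose by 1.96 in BALB/c (SE 0.2, adjusted p = 0.00092, not lost in any alternative) and in A/J by 1.05 (adjusted p = 0.027, lost in 11). Thbs1, an activator of latent TGF-beta, fell by 0.62 on the log2 scale in BALB/c, from 30.6 ± 1.06 RPKM in C57BL/6J to 17.5 ± 2.53 RPKM (adjusted p = 0.048, lost in 12).

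Periocular mesenchyme transcription factors held 2 falls among 24 tested genes, both in A/J against C57BL/6J. Prrx2, a homeobox factor, averaged 3.47 ± 0.215 RPKM in A/J and 7.22 ± 0.99 RPKM in C57BL/6J, a log2 change of -0.85 (SE 0.14, limma adjusted p = 0.013), and lost its call after GC correction (-0.4). Foxf2 averaged 1.41 ± 0.373 and 2.76 ± 0.35 RPKM, a log2 change of -0.69 (limma adjusted p = 0.05 after rounding, just under the threshold), and lost its call in 15 of the alternatives. Foxc2, the paralogue of Foxc1, averaged 0.74 to 1.09 RPKM and was not tested.

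Of 27 tested genes of the small subunit processome, the complex of Wdr36, 1 rose in A/J. Utp18 was at 15.5 ± 3.28 RPKM in A/J against 6.38 ± 0.655 RPKM in BALB/c and 6.34 ± 0.92 RPKM in C57BL/6J (SD, n = 3). The log2 change was 1.32 (SE 0.2, adjusted p = 0.0083) from C57BL/6J and 1.14 (adjusted p = 0.019) from BALB/c, and both calls were lost without A/J 1. The call against C57BL/6J was lost in 3 alternatives, and that against BALB/c in 6, among them those that left out A/J 2 or any 1 BALB/c library.

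None of 10 tested angiopoietin-like and Tie2 genes was called by limma, with 2, 0 and 0 at an unadjusted p under 0.05. Angptl2 was at 14.1 ± 3.55, 16.0 ± 0.07 and 18.2 ± 1.83 RPKM (SD, n = 3) for A/J, BALB/c and C57BL/6J, each below Angptl7. None of 32 other tested glaucoma genes was called, with 6, 0 and 7 at an unadjusted p under 0.05. Of all 12920 tested genes, 2265, 1778 and 2705 were at that p. Tyrp1, a melanosome enzyme whose mutant form contributes to iris disease and glaucoma in DBA/2J mice, was at 235 ± 55.7, 212 ± 12.8 and 213 ± 40.8 RPKM (SD, n = 3). Without A/J 3, 7, 0 and 12 of the 32 were called (21.9%, 0.0% and 37.5%), where the shares of all tested genes were 28.2%, 4.89% and 34.6%.

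Marker lists of the trabecular meshwork, iris and ciliary body were set beside the Myoc values. Of 20 trabecular meshwork markers 18 were listed, none at 0 in any library, and their summed level ranged from 1998 to 2841 RPKM in A/J, 1889 to 2069.8 RPKM in BALB/c and 1903 to 3202 RPKM in C57BL/6J, with overlap. Most of this sum came from Sparc (means of 975, 806 and 908 RPKM for A/J, BALB/c and C57BL/6J) and Dcn (832, 528 and 920.2 RPKM). Dcn is also in the corneal stroma and sclera list, so the sum is not particular to the meshwork. The median log2 change of the 18 markers was -0.05 for A/J minus C57BL/6J, -0.1 for BALB/c minus C57BL/6J and 0.16 for A/J minus BALB/c. In the last comparison 5 markers were higher and 3 lower in A/J without overlap, where 15.6% and 13.6% of all tested genes were. In A/J minus C57BL/6J these counts were 0 and 3 (all tested genes 8.44% and 7.95%). In BALB/c minus C57BL/6J they were 1 and 5 (all tested genes 13.4% and 11.7%). Pi16 and Chi3l1 were the called markers. Pi16, a peptidase inhibitor, fell in A/J: its mean was 20.1 ± 1.67 RPKM there, 55.3 ± 10.9 in C57BL/6J (a change of -1.31 on the log2 scale, limma adjusted p = 0.00099) and 46.4 ± 4.29 in BALB/c (-1.25, limma adjusted p = 0.0021). Chi3l1, a chitinase-like protein, was at 84.0 ± 22.4 RPKM in C57BL/6J and fell in A/J (26.6 ± 1.48, adjusted p = 0.0031) and in BALB/c (19.4 ± 0.633, adjusted p = 0.00087). The A/J calls of both were lost without A/J 1 and A/J 2. The 9 listed smooth muscle markers of iris and ciliary body summed to 198 to 212 RPKM in A/J, 213 to 243 RPKM in BALB/c and 261 to 290 RPKM in C57BL/6J. The 19 listed ciliary epithelium markers summed to 843 to 960, 796 to 829.7 and 860.1 to 942 RPKM. The part of these levels in the Myoc difference was not tested.

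The genes whose levels followed Myoc most closely over the 9 libraries were chosen by Pearson correlation of log2 values. The coefficients are a description, since all 9 points share 3 strains and their libraries. Dnajc10, an endoplasmic reticulum disulphide reductase, was closest (r = 0.973), at 7.54 ± 0.537 RPKM in A/J, 19.8 ± 1.12 RPKM in BALB/c and 18.8 ± 1.85 RPKM in C57BL/6J (SD, n = 3). Gluld1, a lens glutamine synthetase-like gene, followed at r = 0.962, with 394 ± 38.1, 1624 ± 129.9 and 1629.6 ± 319.5 RPKM. Rdm1 (r = 0.957) and Cbx3 (r = 0.954) were likewise lowest in A/J. Of the 31-base stretches of Gluld1 and Cbx3, 11.8% and 10.0% also occur in transcripts of other genes. Acsf2, Mrpl27 and Eif4a1, also close to Myoc, share between 31.1% and 40.3% of their 31-base stretches with transcripts of other genes. Their values are therefore uncertain. In all 7 of these genes the A/J libraries lay below the other 6. As deposited, Cbx3 also lay higher in every BALB/c library (4.13 RPKM or more) than in every C57BL/6J library (3.94 RPKM or less), as Myoc did.

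**Figure D5:**
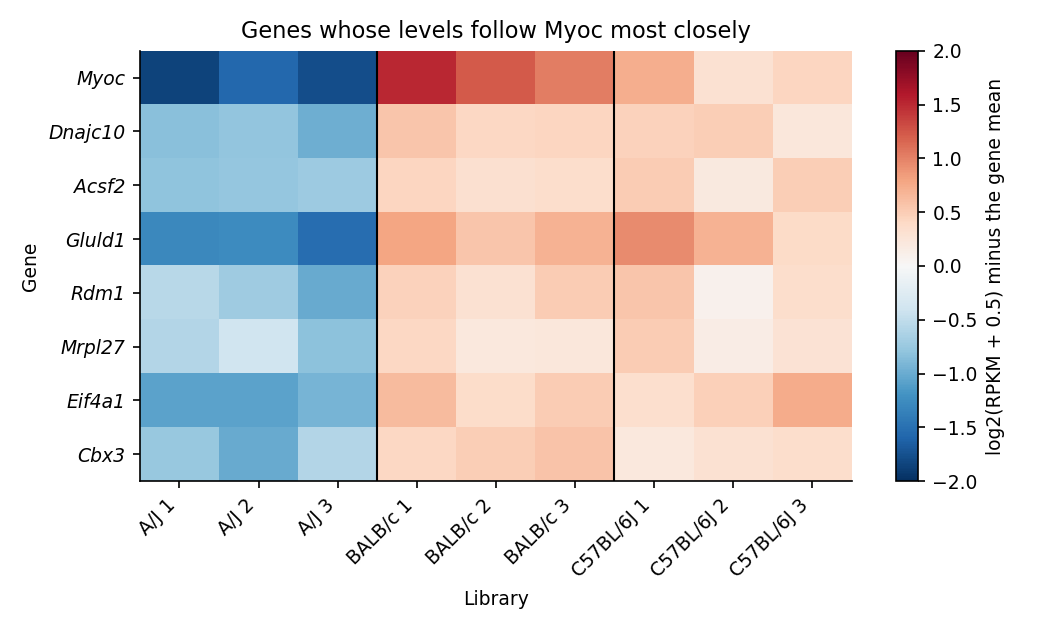
Deviation of log2(RPKM + 0.5), with RPKM as deposited, from each gene's mean over 9 libraries (colour) for Myoc and 7 of the genes with the highest Pearson correlation to it. Rows are genes and columns are libraries; all rows are below their mean in the 3 A/J libraries and above it in the other 6.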

How the data were processed

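Poly(A) RNA of whole eyes was sequenced in 9 libraries, 3 for each of 3 strains. The authors deposited 1 table per library with a gene symbol and a value for 13089 genes, which was taken as RPKM because the file headers name no unit. Summed over genes, value times transcript length gave 108.5% to 126.6% of what RPKM predicts. The highest value was that of C57BL/6J 3 alone, and every other library lay at 111.7% or less. The authors used CASAVA 1.7, GenomeStudio and the build mm9, per the submitters' processing notes; the counting rule is not given in the sources used here. Read depth is unknown, so no counting error can be given, and 71 genes were listed at 0 in at least 1 library.

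Each library's RPKM was scaled by a median-of-ratios size factor, between 0.9313 and 1.158, before log2 with a pseudocount of 0.5. Genes reaching 1 RPKM in at least 3 libraries (12920) entered a limma 3.58.1 fit in R 4.3.3 (trended prior variance, robust, strain as the only term, all 9 libraries, two-sided, Benjamini-Hochberg over all genes tested), and every adjusted p is from this fit unless an alternative is named beside it. The code was tested on simulated data. Overlap between strains was read from the scaled RPKM. Transcript length, GC content and shared sequence came from GENCODE M21 (GRCm38), another build than mm9, for 98.2% of genes.

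The 8 members and the gene lists were chosen with earlier results of these data known. All members are named. From each pathway list up to 3 called genes per comparison, or the most abundant gene where none was called, are named, and from each marker list up to 2 called genes. The genes most like Myoc are the 8 with the highest correlation, clone names left out, of which 1 is not reported here. Tbk1, Ltbp4, Foxc2 and Mgp were chosen after their values were seen. Alternatives changed pseudocount, filter, scaling, samples in the fit, prior variance, GC correction, replicate block or libraries left out, 1 choice at a time, except that GC correction was also run with the block and 2 alternatives left out a pair of libraries.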

Additional observations from a re-analysis of the deposited data

How the results depend on the processing

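The Myoc changes kept their direction under all 22 alternatives, and the BALB/c minus C57BL/6J call was lost in 5 of them. The number of genes called among all tested depended strongly on the libraries. For A/J minus C57BL/6J (348 called) it was 172 with a filter of at least 5 RPKM, 138 with only the strains compared, 126 without A/J 1 and A/J 2, 5043 without A/J 3 and C57BL/6J 3, and 153 to 3630 with each library left out in turn. For BALB/c minus C57BL/6J (399) it was 222, 1877 without A/J 3 and C57BL/6J 3, and 149 to 630. For A/J minus BALB/c (320) it was 201 with that filter, 69 without A/J 1 and A/J 2, 7700 without A/J 3 and C57BL/6J 3, and 79 to 4463. The highest of each leave-one-out range was without A/J 3. The cause was not tested. Without A/J 1 and A/J 2 the lone A/J library was assumed to vary like the other groups. The filter of 5 RPKM left 5 of the 8 members tested. With values as deposited, the higher and lower calls were 113 and 244, 156 and 225, and 95 and 187, against 139 and 209, 250 and 149, and 74 and 246, and the median of all genes moved to -0.11, -0.17 and 0.05. After GC correction they were 259 and 244, 348 and 219, and 141 and 263.

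The replicate numbers share no stated origin, and deviations of same-numbered libraries correlated between -0.51 and 0.54, so they were not taken as pairs. With the replicate number as a block, 406, 398 and 373 genes were called, and the same 1 member, Myoc, was called in each comparison. With GC correction and the block, Cyp1b1 was also called in BALB/c minus C57BL/6J.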

Other observations

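In the marker lists of other anterior segment tissues, single genes differed between strains. Chad and Comp, cartilage matrix proteins also found in sclera and tendon, were low in both albino strains. They were the called genes of 18 corneal stroma and sclera markers. The log2 changes of that list from C57BL/6J ran from -2.65 to 1.41 in A/J (median -0.02) and from -2.58 to 0.96 in BALB/c (median -0.0). Kera, of the same list, was higher in both albino strains, by 1.41 and 0.96, without being called. Chad was at 4.86 ± 0.12 RPKM in A/J and 8.7 ± 1.32 RPKM in BALB/c against 37.2 ± 12.8 RPKM in C57BL/6J (SD, n = 3; limma adjusted p = 0.00092 and 0.008). Comp was at 3.37 ± 1.19 and 1.69 ± 0.05 RPKM against 14.2 ± 2.23 RPKM (limma adjusted p = 0.0023 and 0.00031). Car4, a membrane carbonic anhydrase, was higher in both albino strains, at 3.34 ± 0.361 and 2.91 ± 0.545 RPKM against 0.597 ± 0.131 RPKM (limma adjusted p = 0.00037 and 0.00055). Opcml, an adhesion protein of the ciliary marker list, was lower in A/J, at 0.49 ± 0.0557 RPKM against 1.96 ± 0.474 RPKM in C57BL/6J (limma adjusted p = 0.0078). Without A/J 1 and A/J 2 the A/J calls of Opcml and Comp were lost, and the BALB/c call of Chad was lost without BALB/c 3. Slc4a11, a corneal endothelial transporter, was at 13.1 ± 2.44 RPKM in A/J against 23.3 ± 0.995 RPKM in BALB/c (limma adjusted p = 0.015, lost in 6 alternatives).

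Genes called in the marker lists of other tissues were keratins of the ocular surface, neurofilaments, muscle proteins and others. Krt13 was at 31.8 ± 1.58, 67.5 ± 5.35 and 239 ± 92.6 RPKM in the order A/J, BALB/c, C57BL/6J (SD, n = 3; limma adjusted p = 0.00024 for A/J minus C57BL/6J) and Krt15 at 50.4 ± 5.28, 137 ± 18.0 and 583 ± 333 RPKM (limma adjusted p = 0.00048). Krt4 was at 7.76 ± 2.05, 11.3 ± 0.713 and 60.8 ± 31.3 RPKM (limma adjusted p = 0.0086 for BALB/c minus C57BL/6J, lost in 2 alternatives). The 19 markers of that list had a median log2 change from C57BL/6J of -0.31 in A/J and -0.3 in BALB/c. Krt12, of the same list, was higher in both, by 0.62 and 0.57. In BALB/c minus C57BL/6J 1 marker of the list was called higher and 3 lower, and in A/J minus C57BL/6J 0 and 3. The largest rise in BALB/c was that of Lypd2, by 1.04 on the log2 scale. Nefl and Nefm, of ganglion cell axons among other neurons, were lower in A/J than in C57BL/6J by 0.95 and 0.9 on the log2 scale (limma adjusted p = 0.0035 and 0.0022, each lost in 2). Of their 31-base stretches, 32.2% and 19.1% also occur in transcripts of other genes. The 17 ganglion cell and optic nerve markers tested had a median log2 change of 0.11 in that comparison, between -0.95 and 2.51. Mb and Actn3, of muscle, were lower in BALB/c than in C57BL/6J (limma adjusted p = 0.023 and 0.028, lost in 5 and 10 alternatives), and the median log2 change of the 15 muscle markers tested was -0.02. Of the 31-base stretches of Mb, 27.7% also occur in transcripts of other genes. Vwf, of endothelium, had its lower level in A/J, against BALB/c (limma adjusted p = 0.048, lost in 14), and Sag, of photoreceptors, was higher in A/J than in C57BL/6J (limma adjusted p = 0.0065, lost in 2). No gene was called by limma among the 9 smooth muscle markers of iris and ciliary body, with 1, 0 and 1 at an unadjusted p under 0.05. Likewise none was called among 14 lens markers (4, 9 and 5 at that p) and 5 lacrimal and Harderian gland markers (0, 2 and 2). Of all 12920 tested genes, 2265, 1778 and 2705 were at that p. All 14 lens markers were higher in BALB/c than in C57BL/6J, by 0.14 to 1.35 on the log2 scale (median 0.7). Of these, 12 were higher without overlap, against 13.4% of all tested genes. The lens median was 0.3 for A/J minus C57BL/6J and -0.37 for A/J minus BALB/c.

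The genes closest in level to the other members over the 9 libraries were Selk for Optn (r = 0.987), Tnnc1 for Cyp1b1 (r = 0.963), Vps37b for Ltbp2 (r = 0.995), Map3k6 for Foxc1 (r = 0.97), Zfp142 for Lmx1b (r = 0.983), Tmod2 for Wdr36 (r = 0.982) and Mark1 for Angptl7 (r = 0.93). Vps37b shares 40.8%, Zfp142 18.3% and Selk 16.1% of their 31-base stretches with transcripts of other genes, so their levels are uncertain. These coefficients describe 9 libraries of 3 strains and carry no test.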
